A study of Bos taurus with 9 samples.

Results

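Trimethylation of lysine 9 on histone H3 (H3K9me3) was mapped in rumen tissue of Holstein cattle before (control) and after 24 h of butyrate treatment by chromatin immunoprecipitation followed by sequencing (ChIP-seq). The members described here are all H3K9me3 peaks on chromosomes 1 to 29 of the bovine assembly UMD3.1.1, chosen by antibody label and chromosome. These are 1536 control and 1710 butyrate peaks, together 3246 of the 86291 peaks in the 8 lists of the series. The lists were made from 1 library per antibody and condition, so no difference between conditions below has a replicate check and none was tested. The control H3K9me3 library was run on lane 3 and the butyrate library on lane 4, so lane and condition cannot be told apart, and both lists were called against the same single input library. The butyrate was infused directly into the rumen and the tissue was biopsied. The number of animals and the mix of cells in a biopsy are not given in the sources used here. The peak lists carry no read depth, and the mapping summary that the study supplies was not used here. Differences in depth between the libraries were therefore not corrected.

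H3K9me3 is the best known mark of constitutive heterochromatin, the compact and mostly silent fraction of the genome. In mammals it is laid down by histone methyltransferases, bound by heterochromatin protein 1, and found in broad domains over repeats near centromeres and telomeres and over clusters of zinc finger genes. Cattle autosomes are acrocentric, with the centromere placed at the start of each assembled chromosome, so that the first and the last positions are different kinds of chromosome end. Butyrate, a short-chain fatty acid made by rumen microbes, inhibits histone deacetylases and thereby raises histone acetylation, which on lysine 9 excludes methylation of the same residue. A genome and gene annotation of UMD3.1.1 were not used here, so regions are given by position and without gene names or sequences.

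After butyrate, H3K9me3 peaks were 1.11 times as numerous as in control. The number of peaks in clusters, as defined below, was higher, and the number outside them was slightly lower. On chromosomes 1 to 29 the control list covered 402 kb at 0.612 peaks per Mb and the butyrate list 456 kb at 0.682 peaks per Mb. The log2 ratio of the peak numbers was 0.15, with a 95% counting interval from 0.06 to 0.25. The peaks were short, with a median width of 229 bp in control and 232 bp after butyrate. Intervals in this text cover counting error only, and since neighbouring peaks are not independent they are too narrow.

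Neighbouring peaks stood closer together after butyrate. The median gap between one peak and the next was 565 kb in control and 321 kb after butyrate, while the mean gap, which follows from the peak number, was 1623 and 1461 kb. Of 1507 control gaps, 32.9% (30.6 to 35.3) were 100 kb or shorter, against 40.8% (38.5 to 43.2) of 1681 butyrate gaps. Gaps of 10 kb or less made up 16.7% in control and 21.0% after butyrate. At 1 kb or less the shares were 6.57% and 6.90%, so the lists differed between about 1 kb and 1000 kb and hardly at the shortest distances. The RNA polymerase II (RNA pol II) lists are the other short ones of the series. There the gaps of 100 kb or less were 16.0% in control and 19.0% after butyrate. This share depends on how dense a list is, and the mean RNA pol II gap was 3607 kb in control and 1941 kb after butyrate. In the denser H3K9ac lists the shares were 45.4% and 47.1%.

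**Figure D1:**
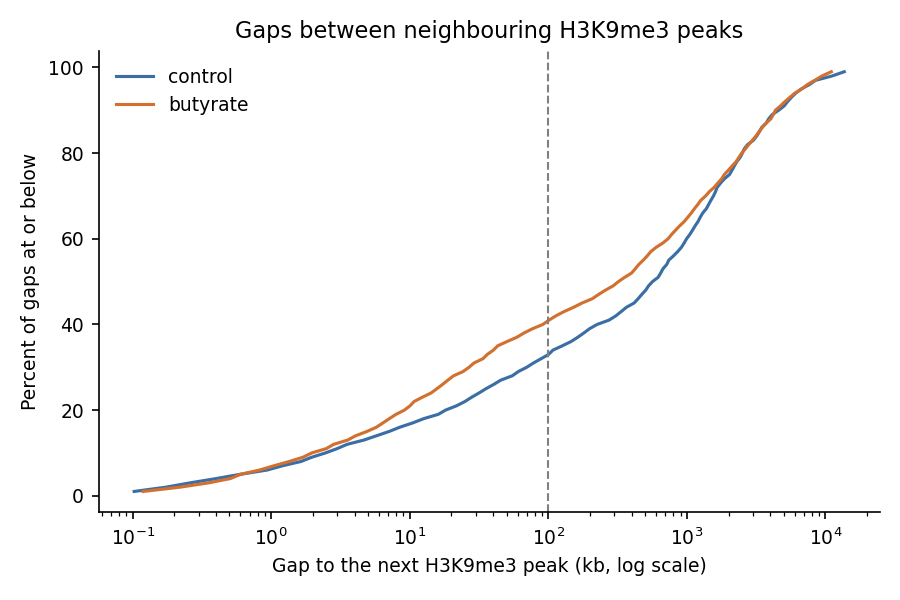
Cumulative percent of gaps (vertical axis) against the gap from one H3K9me3 peak to the next in kb on a log scale (horizontal axis), for control and butyrate, chromosomes 1 to 29; the dashed line marks 100 kb. The butyrate curve lies above the control curve at 100 kb, at 40.8% against 32.9%, and the curves run together at the shortest gaps.

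A cluster was defined as a run of at least 3 peaks of one list with no gap over 100 kb. The control list held 78 clusters on 24 chromosomes with 456 peaks, and the butyrate list held 108 clusters on 28 chromosomes with 675 peaks. Clustered peaks therefore made up 29.7% (27.5 to 32.0) of the control peaks and 39.5% (37.2 to 41.8) of the butyrate peaks. Clustered peaks were 1.48 times as many after butyrate. The number of all other peaks, called single here, was 1080 in control and 1035 after butyrate, a ratio of 0.958 with a log2 interval from -0.18 to 0.06. A fixed gap and minimum place more peaks in clusters when a list is denser. The part of the peak number in these shares and ratios was not tested. The clusters were alike in build. They held a median of 4 peaks in both lists and at most 37 in control and 41 after butyrate, and their median span was 56.7 and 63.5 kb. In all, the clusters spanned 8.30 Mb in control and 10.4 Mb after butyrate, which is 0.331% and 0.415% of the 2.51 Gb covered by these chromosomes.

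The same concentration was seen in fixed 1-Mb bins. Of 2523 bins, 1707 held no peak in control and 1713 none after butyrate. Bins with 10 or more peaks numbered 11 in control and 22 after butyrate, and 9 bins were in both sets. These dense bins held 13.9% of the control peaks and 22.2% of the butyrate peaks. A fixed limit of 10 peaks is passed more often in a longer list. The 26 bins with the most peaks in each list held 21.4% of the control peaks and 24.2% of the butyrate peaks, a smaller difference. The variance of the bin counts was 5.04 times their mean in control and 6.01 times after butyrate. The acetylation mark H3K27ac, found at active promoters and enhancers, did not follow this order. In control the median number of H3K27ac peaks was 5 in bins without H3K9me3, 19 in bins with 3 to 4 H3K9me3 peaks and 10 in bins with 10 or more. After butyrate the corresponding medians were 5, 13 and 7.5.

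Whether clusters stayed in place was examined next. A cluster was counted as persisting when its span overlapped that of a cluster in the other list. Of the control clusters, 48 of 78 persisted (61.5%, 50.4 to 71.6), and of the butyrate clusters 49 of 108 (45.4%, 36.3 to 54.8). Persisting clusters held 345 of the 456 clustered control peaks (75.7%) and 429 of the 675 clustered butyrate peaks (63.6%). The lower share after butyrate depended on this definition: when 1 peak overlapping a peak of the other list was enough, 56 control clusters (71.8%) and 80 butyrate clusters (74.1%) were met again.

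Persistence rose with cluster size in both lists. In control, 22 of 45 clusters of 3 to 4 peaks persisted, 16 of 23 clusters of 5 to 9 peaks, and 10 of 10 clusters of 10 or more. After butyrate the counts were 17 of 58, 16 of 32 and 16 of 18. A larger cluster also spans more sequence, with a median of 40.6 kb for 3 to 4 peaks and 395 kb for 10 or more in control, so that an overlap is easier to reach. The part of span in this rise was not tested.

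Clusters that did not persist often lay over scattered peaks of the other condition. Among the 59 such butyrate clusters, 40, with 179 peaks, had control peaks inside them that were too few or too far apart to make a cluster, and 19, with 67 peaks, had none. Of the 30 control clusters that did not persist, 16 had butyrate peaks inside and 14 had none. In the other direction, 58 of the 1080 single control peaks (5.37%) lay inside a butyrate cluster, and 29 of the 1035 single butyrate peaks (2.80%) lay inside a control cluster.

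Individual peaks were recovered less often than clusters. The rules favour this order, since a cluster spans more sequence than a peak and holds several peaks that can overlap. Over all members, 356 of 1536 control peaks (23.2%) overlapped a butyrate peak by at least 1 bp, and the same held for 349 of 1710 butyrate peaks (20.4%). Such peaks are called found. For clustered peaks the found share was 36.0% (31.7 to 40.5) in control and 28.1% (24.9 to 31.7) after butyrate, and for single peaks it was 17.8% (15.6 to 20.2) and 15.4% (13.3 to 17.7). Membership in a persisting cluster went with a higher share, 41.7% in control and 33.8% after butyrate. In clusters that did not persist, 20 of 111 control and 45 of 246 butyrate peaks were found, close to the share of single peaks. Part of this difference follows from the definitions, since a persisting cluster overlaps a cluster of the other list. Clusters without any peak of the other list inside, with 47 control and 67 butyrate peaks, could hold no found peak.

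The size of the cluster did not raise the share of its peaks that were found. In control this share was 34.0% in clusters of 3 to 4 peaks, 41.3% at 5 to 9 and 33.3% at 10 or more. After butyrate it was 31.2%, 25.5% and 27.9%. All 10 of the largest control clusters thus persisted, although only 57 of the 171 peaks in them were found. The peaks that were not found lay near the other list where they were clustered: 87.0% (82.6 to 90.4) of 292 such control peaks and 88.9% (85.8 to 91.4) of 485 such butyrate peaks had a peak of the other list within 100 kb. For single peaks that were not found it was 178 of 888 in control and 186 of 876 after butyrate. Their median distance to the nearest peak of the other list was 531 kb in control and 503 kb after butyrate, compared with 10.4 and 13.9 kb for clustered peaks.

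**Figure D2:**
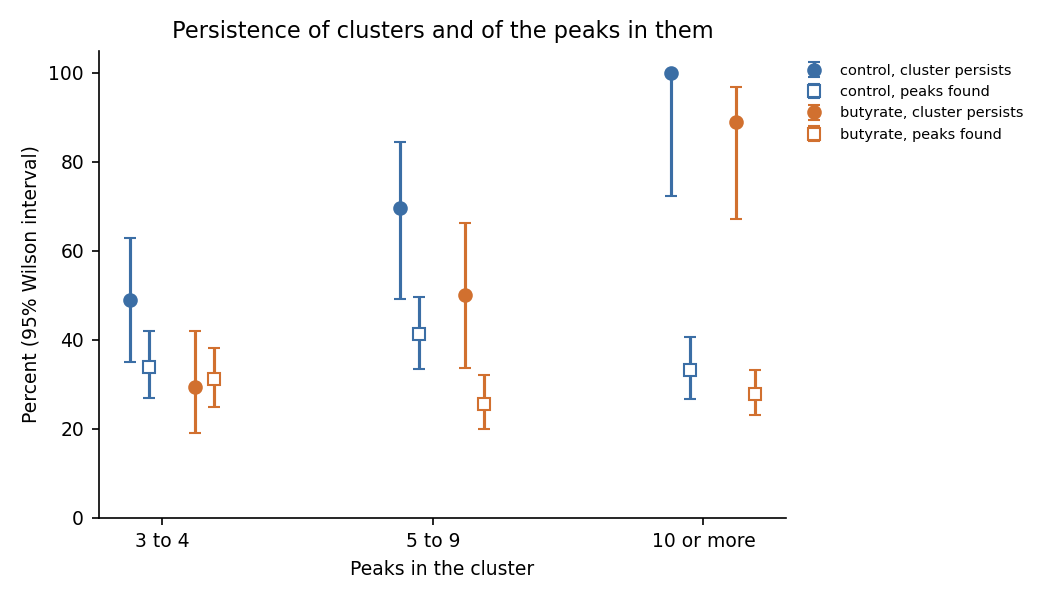
Percent of clusters that overlap a cluster of the other condition (filled circles) and percent of the peaks in these clusters that overlap a peak of the other condition (open squares), by the number of peaks in the cluster (horizontal axis); bars are 95% Wilson intervals. Cluster persistence rises to 100% in control and 88.9% after butyrate at 10 or more peaks, and the found share of peaks stays between 25.5% and 41.3%.

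Peak width moved with these shares. Clustered peaks were wider, with a median of 246 bp against 223 bp for single peaks in control and 248 against 223 bp after butyrate. Of peaks at the minimum width of 200 bp, 16.9% of the clustered and 6.80% of the single control peaks were found. Between 300 and 500 bp the found shares in control were 52.0% and 34.0%, and after butyrate 40.1% and 30.2%. After butyrate, the shares at 200 bp were 5.98% (2.93 to 11.8) for clustered and 3.47% (1.95 to 6.11) for single peaks. The clustered share was thus higher than the single share within these width classes. The intervals of the 2 shares overlapped at 200 bp in both lists and between 300 and 500 bp after butyrate. Above 500 bp the order was 70.0% and 66.7% in control and turned after butyrate, with 24 of 34 clustered and 16 of 20 single peaks found, with overlapping intervals.

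To compare the same regions in both conditions, the peaks of both lists were joined into clusters by the same 100-kb rule, keeping those with at least 3 peaks of one list. Of 133 joint clusters, 78 had more peaks after butyrate, 45 had fewer and 10 had equal numbers. With 2 times or more as the limit, 60 (45.1%) were higher after butyrate and 27 (20.3%) were higher in control. Since 3 peaks of either list were enough to be kept, many joint clusters entered only through the list where they were high. The shares past the limit are therefore partly set by this filter. Of these 87 clusters, 70 held fewer than 10 peaks summed over both lists, where a difference of a few peaks decides the side. Together, joint clusters held 541 control and 720 butyrate peaks, a net gain of 179, while outside them the count fell by 5. The same filter partly sets this split, because regions outside joint clusters hold fewer than 3 peaks of each list. Butyrate peaks alone made up 12 joint clusters and control peaks alone 9. Among the 33 joint clusters with 10 or more peaks summed over both lists, 14 were at least 2 times higher after butyrate, 3 were at least 2 times higher in control and 16 were neither, and each of the 33 held peaks of both lists.

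**Figure D3:**
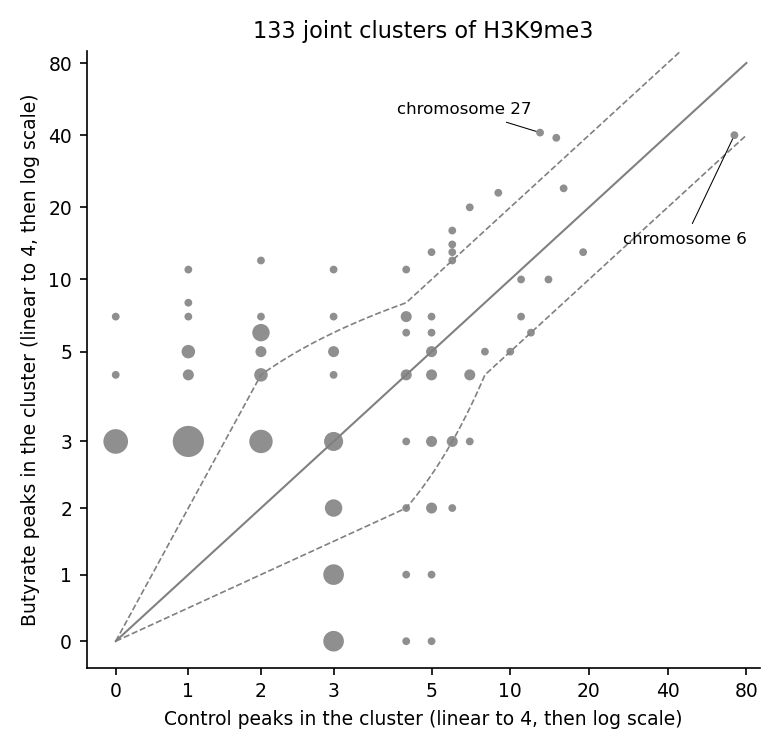
Number of butyrate peaks (vertical axis) against number of control peaks (horizontal axis) in each of the 133 joint clusters, on axes that are linear to 4 and logarithmic above; the point area grows with the number of clusters at that position. The solid line marks equal numbers and the dashed lines a factor of 2; the cluster on chromosome 6 lies below the solid line at 72 and 40 peaks and that on chromosome 27 above the upper dashed line at 13 and 41.

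The joint cluster with the most peaks lost peaks. It lay on chromosome 6 (UMD3.1.1, chr6:5377005-6434317), spanned 1057 kb and held 72 control peaks (56.3 to 90.7, exact Poisson interval) and 40 butyrate peaks (28.6 to 54.5). In each direction 24 peaks were found, which is 60.0% of those seen after butyrate and 33.3% of those seen in control. The median spacing from one peak to the next was 5.63 kb in control and 9.98 kb after butyrate. RNA pol II peaks were also dense in this interval, with 29 in control and 25 after butyrate, and H3K27ac peaks numbered 9 and 6.

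Gains were largest on chromosomes 27, 14 and 8. The cluster at chr27:28468660-28939096, of 470 kb, held 13 control peaks (6.92 to 22.2) and 41 butyrate peaks (29.4 to 55.6). Here 12 of the 13 control peaks were found again, and the other 29 butyrate peaks stood between and around them. The median spacing fell from 23.0 to 5.27 kb. This interval was nearly free of the other marks: it held 1 RNA pol II peak in control, 0 after butyrate, and no H3K9ac or H3K27ac peak in either condition.

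The cluster at chr14:14538774-15358989, of 820 kb, held 15 control peaks (8.40 to 24.7) and 39 butyrate peaks (27.7 to 53.3). In contrast to chromosome 27, only 4 peaks overlapped in each direction, so that both lists had peaks in the region at mostly different positions. The lists carry no signal, so a peak missing from one list does not show that the mark was absent there. RNA pol II peaks in this cluster numbered 5 and 20, while on all of chromosomes 1 to 29 they numbered 673 and 1242. On chromosome 8 (chr8:74488409-74795707, 307 kb), 9 control peaks (4.12 to 17.1) stood against 23 butyrate peaks (14.6 to 34.5), 7 of the 9 control peaks were found, and no H3K9ac or H3K27ac peak lay in the interval. The gains on chromosomes 27, 14 and 8 sum to 66 peaks. The net change over all chromosomes was 174 peaks, and it was 108 without these 3 clusters and 206 without the cluster on chromosome 6.

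**Figure D4:**
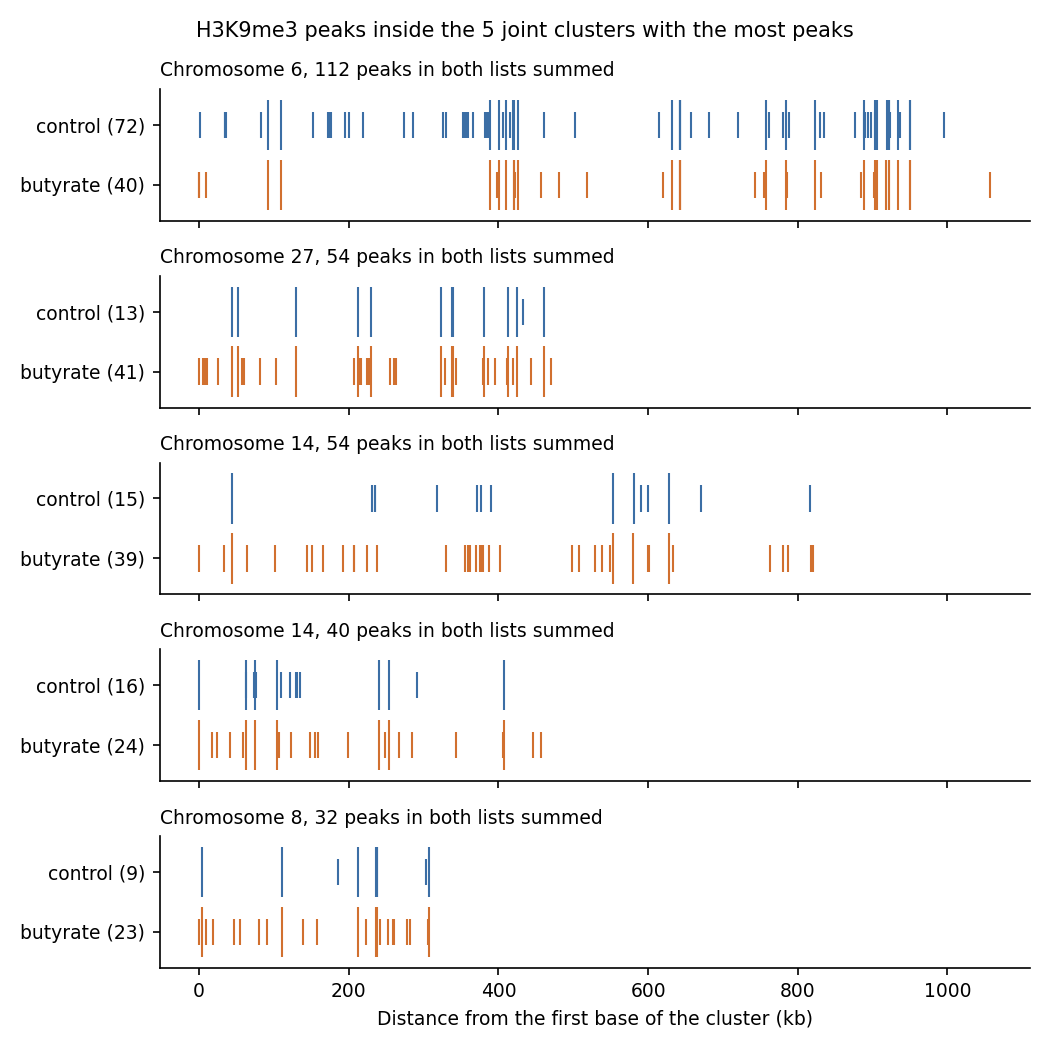
Position of each H3K9me3 peak in the 5 joint clusters with the most peaks, as the distance in kb from the first base of the cluster (horizontal axis), with control above and butyrate below; tall ticks overlap a peak of the other list and short ticks do not. On chromosome 27, 12 of 13 control peaks are tall and 29 of 41 butyrate peaks are short, whereas in the cluster of 54 peaks on chromosome 14 4 ticks of each list are tall.

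The remaining joint clusters of the 10 with the most peaks had counts in either direction. The Poisson intervals of the 2 lists overlapped for each of them, as they did for the cluster on chromosome 8. Close to the start of chromosome 14 lay a pair of them. At chr14:652224-1109705 there were 16 control and 24 butyrate peaks, 7 of them overlapping in each direction. At chr14:7215-418084 there were 6 control and 16 butyrate peaks, 3 overlapping. On chromosome 18, the cluster at chr18:59745151-60142978 held 7 control and 20 butyrate peaks. The other one on that chromosome, at chr18:47060329-47683005, held 14 and 10, with only 1 overlapping peak in each direction, and 16 H3K27ac peaks in each condition. The clusters at chr16:7056698-7621676, with 19 and 13 peaks, and at chr15:29580434-29637736, with 11 and 10 peaks in only 57.3 kb, also had fewer after butyrate.

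Clusters of one condition without any overlapping peak of the other were small. They numbered 22 of 78 in control, with at most 7 peaks, and 28 of 108 after butyrate, with at most 10. Among the control ones, that at chr14:14769059-14928591 had 7 peaks, but 10 butyrate peaks lay between them, inside the large chromosome 14 cluster. The next in size, each of 5 peaks, were at chr25:39050832-39086868, 0.316 kb from a butyrate peak, at chr7:14008529-14121279, 33.8 kb from one, and at chr6:6909345-6928911, 102 kb from one. After butyrate, the cluster at chr18:65551722-65784469 had 10 peaks with 3 control peaks interspersed, and that at chr9:3922-42096, near the start of the chromosome, had 7 peaks with the nearest control peak 25.7 kb away. The cluster at chr3:82782957-82911727 stood furthest apart of these 3, with 7 peaks and the nearest control peak 1034 kb away.

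Of the 3 widest peaks per list, 5 of 6 were found. The widest in control, at chr15:29598746-29599729, was 984 bp wide and lay in a cluster of 11 peaks. The widest after butyrate, at chr19:38417203-38418245, was 1043 bp wide and stood alone. A peak on chromosome 8 was among the 3 widest in both lists, at chr8:23183818-23184796 in control (979 bp) and chr8:23183833-23184796 after butyrate (964 bp), sharing its last position. It had 7 peaks in its control run and 4 in its butyrate run. The third widest in control, 923 bp at chr22:60856262-60857184, was a found single peak. The one not found was the butyrate peak at chr29:30358759-30359703, of 945 bp, which lay in a run of 12 peaks and 57.5 kb from the nearest control peak.

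Chromosome ends were denser in H3K9me3 peaks than interiors in both lists. With 5 Mb taken from each end, the first parts of the chromosomes held 127 control and 192 butyrate peaks, the last parts 140 and 135, and the interiors 1269 and 1383. Per Mb this is 0.876 at the start, 0.966 at the last end and 0.572 in the interior for control, and 1.32, 0.931 and 0.623 after butyrate. The density at both ends together was 1.61 times that of the interior in control and 1.81 times after butyrate. The RNA pol II lists, called against the same input, gave 1.06 and 0.948 by the same measure at 5 Mb. With ends of 1 Mb they too were denser at the ends, at 2.11 and 1.81 times the interior, against 3.23 and 4.51 times for H3K9me3. H3K27ac was lower at the start than in the interior, at 0.890 times in control and 0.848 after butyrate, and higher at the last end, at 1.70 and 1.58 times.

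Of the 2 ends, the starts gained peaks after butyrate and the last ends changed little, while the larger part of the added peaks lay in the interiors. In the first 1 Mb, 64 control peaks (2.21 per Mb) stood against 113 butyrate peaks (3.90 per Mb), and in the last 1 Mb 45 (1.55 per Mb) against 52 (1.79 per Mb). Relative to the interior, the density in the first 1 Mb was 3.79 times in control and 6.18 times after butyrate, and for RNA pol II 3.03 and 1.84 times. Of the 29 chromosome starts, 14 had more peaks after butyrate in this first 1 Mb, 4 had fewer, 7 had equal numbers and 4 had none in either list. Chromosome 14 contributed most, with 21 control and 36 butyrate peaks, followed in gain by chromosome 16 with 4 and 12. Without chromosome 14 the first 1 Mb held 43 and 77 peaks, and the density relative to the interior was 2.66 and 4.48 times. With ends of 5 Mb, the starts of chromosomes 14 (26 control and 46 butyrate peaks) and 21 (8 and 16) and the last end of chromosome 18 (19 and 24) held the most peaks.

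The density was highest at the very start. In the first 20 kb there were 15 control peaks on 9 chromosomes, or 25.9 per Mb, and 33 butyrate peaks on 11 chromosomes, or 56.9 per Mb. Of these, 12 in each list overlapped, so that most control peaks there were found and most butyrate peaks were not. Chromosomes 15 and 16 carried the most, with 3 and 6 peaks on chromosome 15 and 4 and 11 on chromosome 16 in control and butyrate, and all of their control peaks were found. From 20 to 100 kb the counts were 5 in control and 17 after butyrate. Between 1 and 2 Mb there were 18 control and 29 butyrate peaks. From 2 Mb onward the counts drew together, with 45 and 50 peaks between 2 and 5 Mb and 157 and 141 between 5 and 10 Mb. On 18 of the 29 chromosomes the first peak of any of the 8 lists was an H3K9me3 peak, although H3K9me3 makes up 3.90% of the peaks in these lists on chromosomes 1 to 29. The last position of a chromosome was taken from the last peak in any list, which places a peak at the last end by construction, so the last 20 kb are not compared with the first.

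Peaks near the start were mostly clustered after butyrate. In the first 1 Mb, 45.3% (33.7 to 57.4) of the control peaks and 74.3% (65.6 to 81.5) of the butyrate peaks were in clusters, compared with 29.1% and 37.0% in the interior. Chromosome 14 supplied 21 of the 64 control and 36 of the 113 butyrate peaks in this first 1 Mb. The clustered shares without it were not computed. The found share in the first 1 Mb was 42.2% in control and 23.9% after butyrate. Within 5 Mb of the start there were 8 control clusters, all of which persisted, and 19 butyrate clusters, of which 7 persisted. Assembly gaps and repeats at chromosome starts limit where reads align uniquely, and their part in these densities was not tested.

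**Figure D5:**
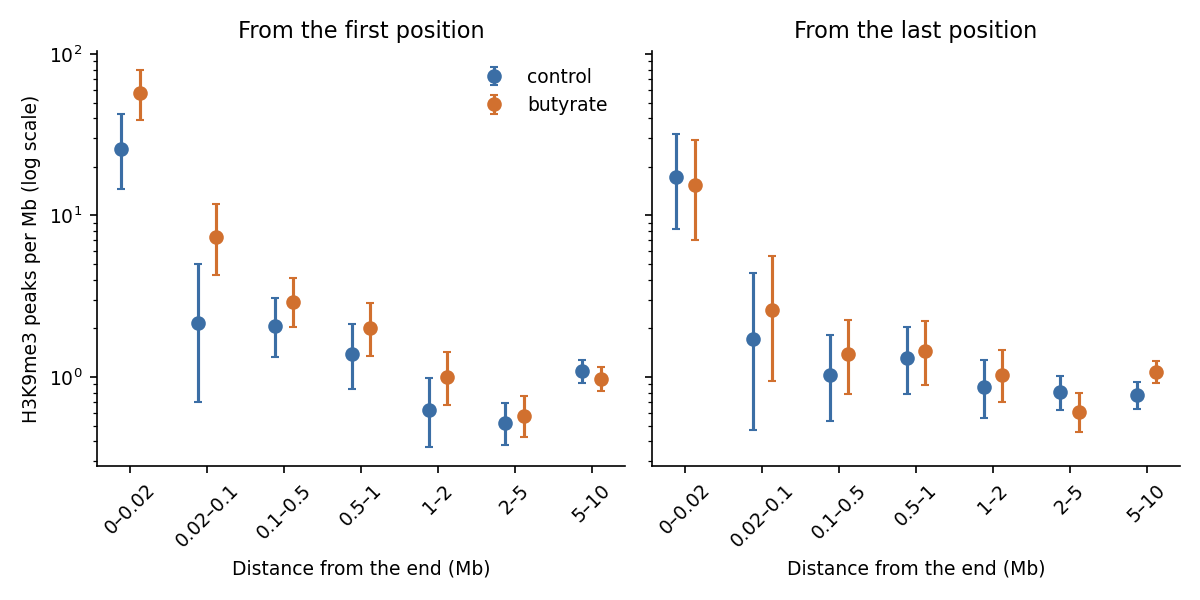
H3K9me3 peaks per Mb (vertical axis, log scale) in bands of distance in Mb from the first (left) and last (right) position, summed over 29 chromosomes, for control and butyrate; bars are exact Poisson 95% intervals. In the first 20 kb the values are 25.9 and 56.9 peaks per Mb, and from 2 to 5 Mb they are 0.517 and 0.575.

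Peak density also differed between chromosomes. With both lists summed, chromosome 18 was the densest, with 1.70 control and 1.82 butyrate peaks per Mb, followed by chromosome 27 with 0.843 and 1.80 and chromosome 14 with 0.939 and 1.54. In control alone, chromosome 23 came second with 1.01 peaks per Mb and chromosome 27 lay below chromosome 14. Chromosomes 12, 2 and 26 were the sparsest, and chromosome 26 had no found peak in either list. After butyrate 21 chromosomes had more peaks and 8 fewer. The counting interval of the log2 ratio lay above 0 for 3 chromosomes and below 0 for 2. On chromosome 27 the count went from 37 to 79 (log2 ratio 1.09, 0.53 to 1.66) and on chromosome 14 from 79 to 130 (0.72, 0.32 to 1.12). Chromosome 7 went from 88 to 121 (0.46, 0.06 to 0.86). The lower ones were chromosome 6, with 117 and 84, and chromosome 20, with 42 and 24. On chromosomes 27, 14 and 6, much of the change lay in the joint clusters named above. That on chromosome 27 went from 13 to 41 peaks and that on chromosome 6 from 72 to 40. Chromosomes 7 and 20 had none among the 10 joint clusters with the most peaks. Chromosome 20 had no cluster in control, so all of its control peaks were single.

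Finally, the other antibodies were compared over the same peaks. RNA pol II peaks overlapped 12.1% (9.38 to 15.4) of the clustered and 5.19% (4.01 to 6.67) of the single H3K9me3 peaks in control, and 9.93% (7.89 to 12.4) and 6.28% (4.96 to 7.93) after butyrate. Within 10 kb of an RNA pol II peak lay 28.1% of the clustered and 6.48% of the single control peaks, and 20.9% and 9.37% after butyrate. At least 1 RNA pol II peak overlapped or lay inside 30 of the 78 control clusters and 31 of the 108 butyrate clusters. For H3K27ac this held for 33 control clusters (42.3%) and 33 butyrate clusters (30.6%). Directly, H3K27ac overlapped 5.04% of clustered and 3.98% of single peaks in control, and 1.78% and 3.29% after butyrate. For scale, H3K27ac peaks covered 0.535% of the bases of these chromosomes in control and 0.483% after butyrate. The share of members that would overlap by position alone was not computed.

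Found peaks carried the other antibodies more often than peaks that were not found. RNA pol II overlapped 20.8% (16.9 to 25.3) of the 356 found control peaks and 3.14% (2.28 to 4.29) of the 1180 others. After butyrate the shares were 23.5% (19.4 to 28.2) of 349 and 3.67% (2.80 to 4.81) of 1361. H3K9ac, an acetylation of the very residue that H3K9me3 methylates, overlapped 8.15% and 0.847% in control and 8.60% and 1.25% after butyrate. Found peaks were also wider, with medians of 266 against 221 bp in control and 291 against 222 bp after butyrate. All these lists share the input library, and the part of the input and of peak width in these shares was not tested.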

How the data were processed

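According to the labels and the methods of the study, reads of 75 nt were aligned with BWA to UMD3.1.1 and peaks were called against the input with MACS2 (2.1.1) at default settings. The submitters' processing notes also list Trim Galore 0.4.1. The series text describes single-end and the methods paired-end reads. The deposited lists hold chromosome, start and end of each peak, and no score, signal or depth. The other unit is therefore base positions, taken as 1-based with both ends included. The input library was not analysed here.

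Groups followed the labels. The members and lists were chosen with earlier results of these data known. Clusters were runs of at least 3 peaks with gaps of at most 100 kb, ends were 5 Mb, found meant an overlap of at least 1 bp, and a chromosome was taken to end with the outermost peak of the 8 lists. Shares have Wilson and counts exact Poisson 95% intervals, and ratios of counts have normal intervals on the log scale. No test between conditions was run, with 1 library per group. Named regions were the 10 joint clusters with the most peaks, 3 clusters per list without an overlapping peak, the 3 widest peaks per list, the 3 densest and 3 sparsest chromosomes, and the 3 ends with the most peaks. Chromosomes 6, 7, 16, 20 and 23, the cluster tied for size on chromosome 6 and the first 20 kb of chromosomes 15 and 16 were named after their values were seen. The code was tested on simulated lists with Python 3.11.15, pandas 2.3.3 and scipy 1.17.1.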

Additional observations from a re-analysis of the deposited data

How the results depend on the processing

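Of 84 values recomputed under 15 alternative settings, 60 stayed within the counting interval, or for joint clusters within 1.5 times, of the reported value. The other 24 moved. A reversal could be scored only for the peak number ratio, the density at ends and the difference in found share, and none of these reversed. For the clustered shares, the persisting shares and the joint clusters no reversal could be scored. Ends of 1 Mb, and leaving out chromosome 14 or 6, were chosen after seeing the data. The clustered share was higher after butyrate in each setting tried. In control and butyrate it was 25.7% and 33.9% with peaks within 1 kb merged, 23.7% and 34.5% with gaps of at most 50 kb, 45.8% and 56.4% with 500 kb, and 20.1% and 28.6% with at least 5 peaks in a cluster. In control it was 26.5% for peaks of at least the median width and 26.7% without chromosome 6. The density at ends over interiors was 1.12 and 1.28 with X included, 2.27 and 3.11 with ends of 2 Mb, and 3.23 and 4.51 with ends of 1 Mb. The share of clusters that persist was 76.9% in control for peaks of at least the median width, and it was 71.8% and 74.1% when 1 overlapping peak was enough, so the lower share after butyrate depends on comparing cluster spans. Joint clusters at least 2 times higher after butyrate and in control numbered 35 and 11 for peaks of at least the median width and 28 and 10 with at least 5 peaks, and 46 were higher in control with gaps of 500 kb. No paired analysis was possible because 1 library stood on each side. Read depth was not used here, so a longer list cannot be told apart here from a more deeply sequenced library.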

Other observations

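On the X chromosome, which lies outside the regions described above, the same cluster rule placed most peaks of both lists in clusters. Of 691 control and 709 butyrate H3K9me3 peaks, 83.4% (80.4 to 85.9) and 82.5% (79.5 to 85.1) were in clusters, so that the clustered share did not rise there. With a control share this high, little room was left for a rise. Of the clusters on X, 34 of 38 persisted in control and 36 of 50 after butyrate.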
